A study of Drosophila melanogaster with 12 samples.

Results

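Larvae of Drosophila melanogaster carry blood cells, the hemocytes, and 10 genes that mark them or act in them were followed here in the larval carcass: PPO1, PPO2, PPO3, atilla, Hml, NimC1, NimC2, eater, He and srp. They were chosen by name, with earlier results of these data known. All 10 were found among the 17492 genes of each deposited table. The carcass is what remains of a dissected larva after the internal tissues are taken out. Stationary larvae of the third instar were used throughout. The animals labelled WT were of strain w1118, and those with the genotype Nxt1 were trans-heterozygotes for Nxt1, a gene of messenger RNA export, and listed under strain yw. The alleles were not named, and strain and Nxt1 genotype cannot be told apart in this design. Each genotype had 3 libraries of total RNA incubated with water in place of the exonuclease RNase R, and these 6 libraries gave the mRNA and pre-mRNA values. Another 3 libraries per genotype had been incubated with RNase R and served to list circular RNAs.

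Insect hemocytes fall into classes. Plasmatocytes engulf microbes and debris through surface receptors, crystal cells store prophenoloxidases, and lamellocytes are flat cells that wrap objects too large to engulf, such as parasitoid eggs. Prophenoloxidases are cleaved to phenoloxidases, which oxidize phenols on the way to the black pigment melanin at wounds and capsules. In the larva many hemocytes circulate, and others sit in patches under the body wall, a part of the animal that a carcass keeps. In a sample of whole tissue, fewer cells of a class and less RNA per cell cannot be told apart.

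The mRNA libraries held between 19830526 and 32868851 reads, recovered as whole numbers from the deposited FPKM (fragments per kilobase of gene length, scaled for library depth), and the shallowest was Nxt1 replicate 1. The first principal component separated the genotypes and carried 61.1% of the variance, and WT replicate 3 lay apart on the second, which carried 20.6%. The Nxt1 transcript stood at 9.64 ± 1.22 FPKM in WT and at 6.10 ± 0.430 FPKM in Nxt1 (SD, n = 3 each), and the white gene w had 0 reads in all 3 WT libraries against 59, 114 and 101 in Nxt1. The lower Nxt1 level is the direction the genotype label names. Both strain names denote mutants of w, so the labels give no direction for its reads, which differed between the groups. The lengths behind the deposited FPKM were those of other genes, so that values compare between libraries within a gene and not between genes. Where levels of several genes are set side by side, the reads were divided by each gene's own length.

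Of the 10 genes, 3 had significantly more mRNA in Nxt1 (PPO1, PPO2 and He) and 2 had less (PPO3 and NimC1). The test was limma on log2(FPKM + 1) over the 8923 genes whose mean reached 1 FPKM, with a Benjamini-Hochberg adjusted p under 0.05. Over all genes tested, 21.6% passed, 12.5% with more and 9.1% with less, and edgeR on the recovered reads, which called the same 5 hemocyte genes, called 23.7%. The 3 Nxt1 libraries lay on one side of the 3 WT libraries for 7 of the 10 genes, all but Hml, eater and srp, against 43.9% of all genes tested. The median log2 difference of the 10 was 0.36, beside 0.01 over all genes. Since the 10 were chosen with earlier results known, these counts are a description and not a test. When the libraries were scaled to equal totals of reads instead, the median of all genes moved to -0.32 and that of the 10 to 0.02. With equal totals 5 of the 10 were called (PPO1 and PPO2 higher, PPO3, NimC1 and eater lower). Over all genes 54.9% were called, 528 higher and 4369 lower, so small differences depend on the scaling.

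**Figure D1:**
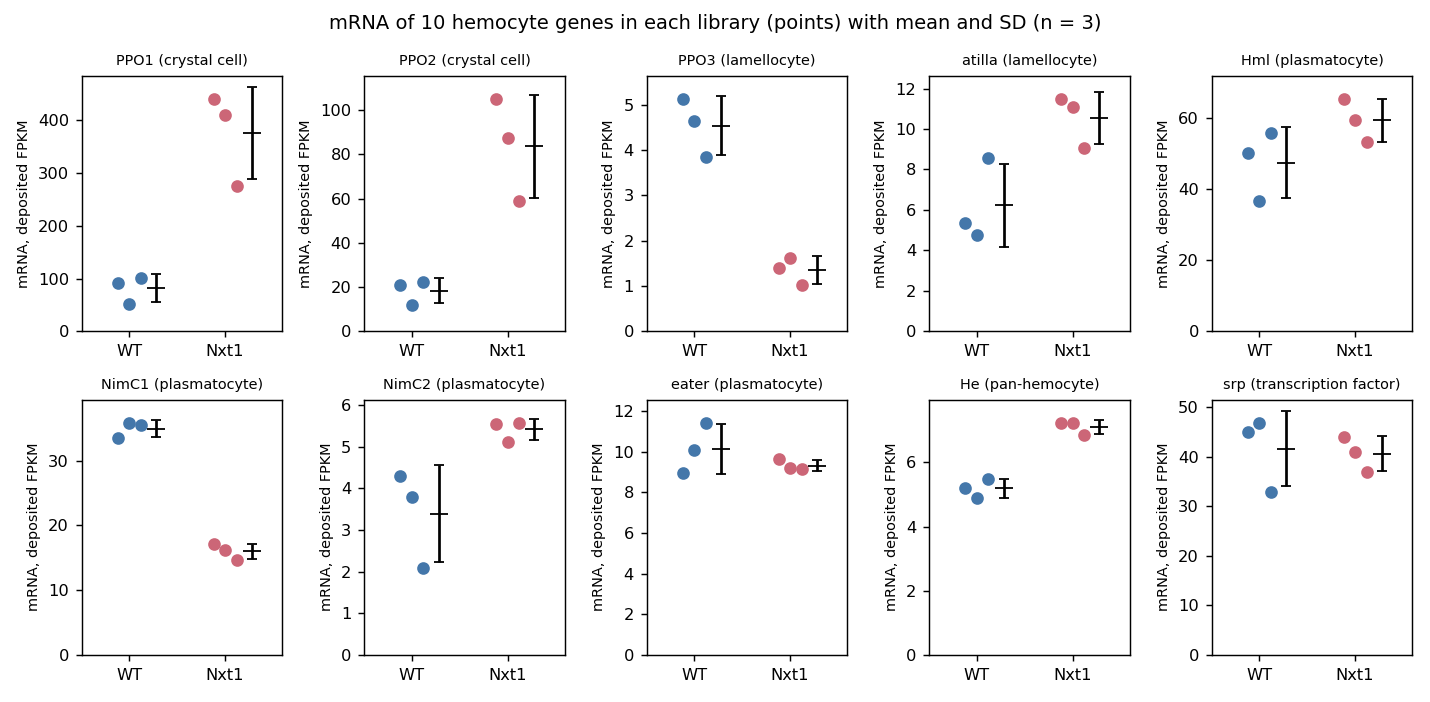
Each panel plots the deposited mRNA FPKM of 1 hemocyte gene in the 6 libraries, with points for libraries and bars for the mean ± SD of the 3 libraries per genotype. PPO1 and PPO2 stand well above WT in all 3 Nxt1 libraries, PPO3 and NimC1 stand below, and the genotypes overlap for Hml, eater and srp.

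PPO1 and PPO2 encode the prophenoloxidases made by crystal cells. PPO1 (FBgn0283437) measured 91.0, 51.3 and 101.4 FPKM in WT replicates 1 to 3 and 441, 410.2 and 276 FPKM in Nxt1. Every Nxt1 library exceeded the highest WT library, WT replicate 2 was the low one of its group, and Nxt1 replicate 3 was the low one of the other. The means were 81.3 ± 26.4 and 376 ± 87.6 FPKM (SD, n = 3 each), a log2 difference of 2.22 with a standard error of 0.30 (limma adjusted p = 0.00698). The reads behind these values were 2414, 1327 and 2543 in WT and 5572, 8457 and 5822 in Nxt1, so counting error is small beside the spread between libraries.

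PPO2 (FBgn0033367) measured 20.7, 11.8 and 22.3 FPKM in WT and 105.1, 87.4 and 58.9 FPKM in Nxt1. The libraries took the same order within each genotype as for PPO1, and again the groups did not overlap. Its mean rose from 18.3 ± 5.68 to 83.8 ± 23.3 FPKM (SD, n = 3 each), a log2 difference of 2.14 with a standard error of 0.30 (limma adjusted p = 0.00755). Among the 8923 genes tested, PPO1 had the 74th and PPO2 the 83rd largest log2 difference toward Nxt1, and 0.975% of genes were called and at least 4 times higher. Ranks and folds here are on the log2(FPKM + 1) scale, where the deposited lengths set the weight of the pseudocount. PPO1 and PPO2 both kept their call when any single library was left out.

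The pair moved together. Per own length, PPO2 had 1.12, 1.13 and 1.08 times the FPKM of PPO1 in the WT libraries and 1.17, 1.04 and 1.05 times in the Nxt1 libraries. The genotypes overlapped, and the log2 ratio differed by -0.03, with an SD of 0.03 over the WT libraries and 0.09 over the Nxt1 libraries (2-sided exact permutation test, p = 0.8, where 3 against 3 libraries can reach 0.1 at the lowest). This ratio is free of any scaling of the libraries, since both genes share it. A root mean square difference over the 6 libraries, each gene centred on its mean of log2(FPKM + 1), measured likeness of profile. PPO1 was nearer to PPO2 (0.0719) than any other gene tested, and the next were Nplp4 at 0.180, Eno (enolase, of glycolysis) at 0.226 and Cpr65Au (a cuticular protein) at 0.229.

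PPO3, the prophenoloxidase of lamellocytes, went the other way. PPO3 (FBgn0261363) measured 5.13, 4.65 and 3.85 FPKM in WT and 1.40, 1.63 and 1.03 FPKM in Nxt1. All 3 Nxt1 libraries lay below the lowest WT library. The means were 4.55 ± 0.646 and 1.35 ± 0.302 FPKM (SD, n = 3 each), a log2 difference of -1.24 with a standard error of 0.14 (limma adjusted p = 0.00409). Its reads were few: the WT libraries held 69, 61 and 49 and the Nxt1 libraries 9, 17 and 11. With its own length its mean level was 0.680 FPKM in WT and 0.202 in Nxt1, under the minimum of 1 FPKM, so it was not tested with the lengths in order. On the recovered reads, edgeR's quasi-likelihood test gave a log2 difference of -1.81 (adjusted p = 0.00750), and -1.79 (adjusted p = 0.00782) among genes with a mean of at least 10 reads. PPO3 had 0.0277, 0.0445 and 0.0187 times the FPKM per length of PPO1 in WT and 0.00156, 0.00195 and 0.00183 times in Nxt1.

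The surface protein atilla, the usual marker of lamellocytes, did not fall with PPO3. Its mRNA (FBgn0032422) measured 5.34, 4.74 and 8.57 FPKM in WT and 11.5, 11.1 and 9.06 FPKM in Nxt1. The groups did not overlap, but WT replicate 3 lay close to Nxt1 replicate 3. The log2 difference of 0.71 with a standard error of 0.21 missed the threshold (limma adjusted p = 0.0578). Without WT replicate 3 it was 0.93 and passed (limma adjusted p = 0.00607). Leaving out any other library instead, it did not pass (limma adjusted p = 0.0997 to 0.168). It was 0.38 with equal totals and did not pass there either (limma adjusted p = 0.169). The genes with the nearest profiles to atilla were CG11594 at 0.0587, CG10311 at 0.0615 and ND-42, a subunit of mitochondrial complex I, at 0.0621. Per own length the WT mean was 49.7 FPKM for atilla and 0.680 for PPO3. Which cells of the carcass carried the atilla mRNA was not tested.

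**Figure D2:**
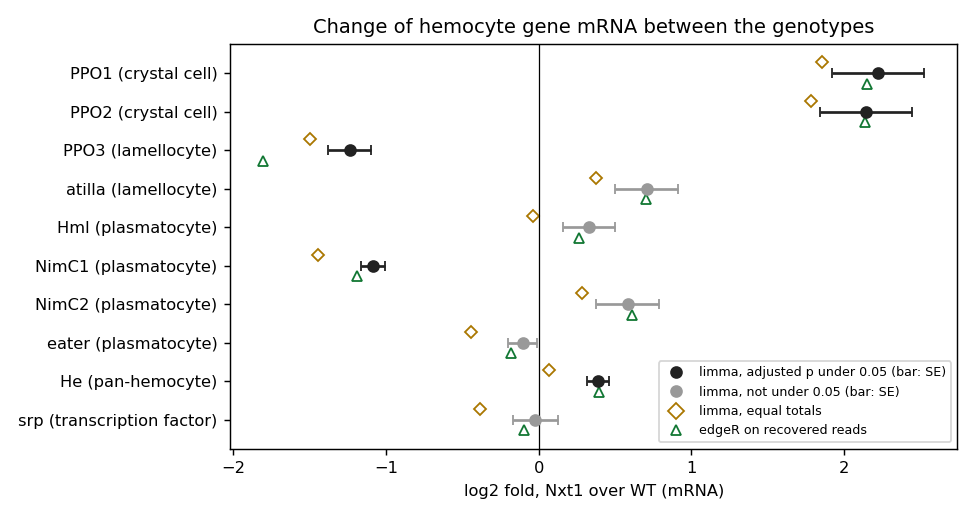
Points give the log2 difference of mRNA between Nxt1 and WT for each hemocyte gene, from limma on log2(FPKM + 1) with bars of ± 1 standard error, and from the alternatives of scaling and counting. PPO1 and PPO2 lie above 2 and PPO3 and NimC1 below -1 in the limma fit, while the other 6 lie between -0.11 and 0.71.

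Of the 4 plasmatocyte genes among the 10, NimC1 was the one that passed the test. NimC1, an EGF-repeat receptor that takes part in phagocytosis and marks mature plasmatocytes, fell. NimC1 (FBgn0259896) measured 33.5, 35.9 and 35.6 FPKM in WT and 17.1, 16.2 and 14.7 FPKM in Nxt1. Values were close within each genotype and far apart between them. The means were 35.0 ± 1.29 and 16.0 ± 1.19 FPKM (SD, n = 3 each), a log2 difference of -1.08 with a standard error of 0.08 (limma adjusted p = 0.00146). It was 197th from the lowest of all tested differences, and PPO3 was 128th. These ranks are of differences in log2(FPKM + 1), where the deposited lengths set the weight of the pseudocount for each gene.

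Hml encodes hemolectin, a large clotting protein whose promoter is widely used to drive transgenes in plasmatocytes. Hml (FBgn0029167) measured 50.2, 36.6 and 55.9 FPKM in WT and 65.5, 59.5 and 53.3 FPKM in Nxt1. Nxt1 replicate 3 lay below WT replicate 3, so the genotypes overlapped. The log2 difference of 0.33 with a standard error of 0.17 did not pass (limma adjusted p = 0.210), and with equal totals it was -0.04. The profiles nearest to Hml were those of Pfrx at 0.0626, CG11699 at 0.0724 and shop at 0.0738.

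NimC2 is a paralogue of NimC1. NimC2 (FBgn0028939) measured 4.31, 3.79 and 2.08 FPKM in WT and 5.55, 5.12 and 5.58 FPKM in Nxt1. All Nxt1 libraries were above all WT libraries, and WT replicate 3 was far below the other WT libraries. The log2 difference was 0.58 with a standard error of 0.21 (limma adjusted p = 0.0954) and did not pass. Without WT replicate 3 it was 0.35 and passed (limma adjusted p = 0.0354). In the fits that left out any other library it did not pass (limma adjusted p = 0.0871 to 0.218). Nor did it pass with equal totals, at 0.28 (limma adjusted p = 0.278).

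The gene eater encodes another phagocytic receptor of plasmatocytes, needed in larvae for hemocytes to attach to the body wall. It (FBgn0243514) measured 8.95, 10.1 and 11.4 FPKM in WT and 9.63, 9.20 and 9.14 FPKM in Nxt1. The Nxt1 libraries all fell within the WT range. The log2 difference of -0.11 did not pass (limma adjusted p = 0.469), whereas with equal totals it was -0.44 and passed (limma adjusted p = 0.0135).

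He encodes Hemese, a surface glycoprotein found on hemocytes of all classes. He (FBgn0028430) measured 5.22, 4.88 and 5.47 FPKM in WT and 7.24, 7.23 and 6.84 FPKM in Nxt1. The groups were tight and did not overlap, with means of 5.19 ± 0.294 and 7.10 ± 0.227 FPKM (SD, n = 3 each). The log2 difference was 0.39 with a standard error of 0.07 (limma adjusted p = 0.0162). This call was lost without WT replicate 1 (limma adjusted p = 0.0626) and without Nxt1 replicate 1, 2 or 3 (0.0579, 0.0664 and 0.0543), and with equal totals the difference was 0.07 (limma adjusted p = 0.450). The fly's GATA factor srp (serpent), which specifies blood cells and is also used by the fat body, measured 45.0, 46.9 and 33.01 FPKM in WT and 44.0, 41.0 and 36.9 FPKM in Nxt1. The Nxt1 libraries of srp (FBgn0003507) lay within the WT range, with a log2 difference of -0.02 (limma adjusted p = 0.932). With equal totals the difference of srp was -0.39 and did not pass (limma adjusted p = 0.063).

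Ratios of genes within a library give the same values free of library scaling. The 4 pairs given here beside PPO2 per PPO1 were chosen after the values had been seen, so they are a description with no test. PPO1 per Hml, each per own length, was 1.13, 0.874 and 1.13 in WT and 4.20, 4.30 and 3.23 in Nxt1. NimC1 per Hml was 0.557, 0.816 and 0.530 in WT and 0.217, 0.227 and 0.230 in Nxt1. NimC1 per NimC2 was 1.97, 2.39 and 4.32 in WT and 0.777, 0.798 and 0.666 in Nxt1. For each of these ratios, and for PPO3 per PPO1, the genotypes did not overlap.

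**Figure D3:**
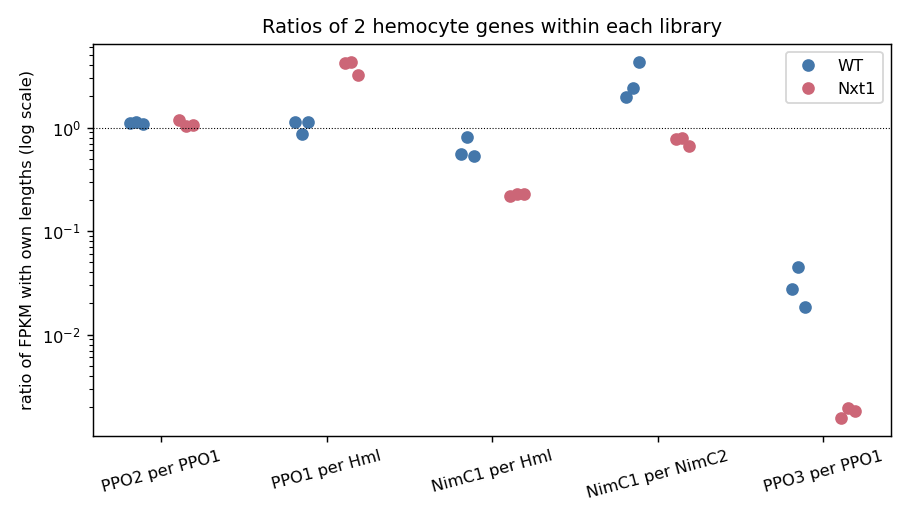
Points show, for each of the 6 mRNA libraries, the ratio of FPKM per own length of 2 hemocyte genes on a log axis, and the dotted line marks a ratio of 1. PPO2 per PPO1 stays near 1 in both genotypes, PPO1 per Hml is higher in every Nxt1 library, and the ratios with NimC1 or PPO3 on top are lower in every Nxt1 library.

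In WT, with reads divided by each gene's own length, atilla was the most abundant at 49.7 ± 16.5 FPKM (SD, n = 3), above the range of the rest. He at 27.5, PPO2 at 27.4, PPO1 at 24.7 and Hml at 23.2 FPKM followed, and each overlapped its neighbour in that order. NimC1 at 14.2, eater at 9.40, then srp at 6.59 and NimC2 at 5.47 FPKM came next, and srp and NimC2 overlapped. PPO3 was the least abundant in both genotypes. In Nxt1, PPO2 led at 125.3 ± 34.9 FPKM and PPO1 followed at 114 ± 26.7 FPKM (SD, n = 3), with overlapping ranges, and PPO1 also overlapped atilla at 84.2 ± 10.4 FPKM. He stood at 37.7 and Hml at 29.0 FPKM, apart from their neighbours. NimC2 at 8.73 and eater at 8.64 FPKM overlapped, as did NimC1 at 6.51 and srp at 6.44 FPKM. For PPO2, PPO3 and NimC1 the length was the gene's span in the reference annotation, since the deposited values did not give it, and a shorter counted length would raise their levels. The places of these 3 genes in the order therefore depend on that length, and their ratios of FPKM between libraries do not. Their differences in log2(FPKM + 1) do depend on length, through the pseudocount and the filter. With the lengths in order the log2 difference was 2.17 for PPO2 and -1.02 for NimC1, and PPO3 did not reach the filter.

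**Figure D4:**
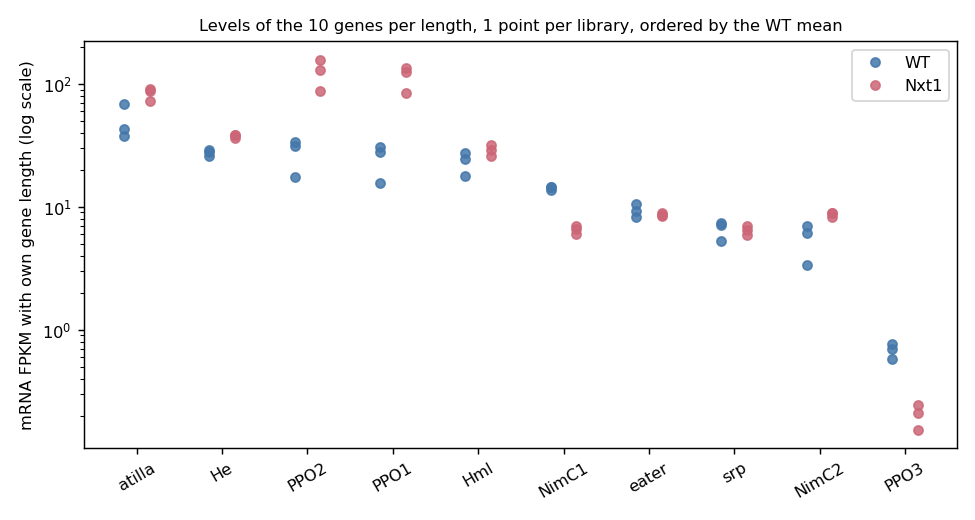
Levels of the 10 hemocyte genes in FPKM per own length are shown on a log axis for the 3 WT and 3 Nxt1 libraries, with genes ordered by their WT mean. PPO1 and PPO2 pass atilla at the top in the Nxt1 means, and PPO3 is lowest in both genotypes at 0.680 and 0.202 FPKM.

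The genes also differed in how far replicates spread. In WT the coefficient of variation was 32.5% for PPO1, 31.0% for PPO2, 33.2% for atilla and 34.4% for NimC2, and 3.68% for NimC1 and 5.67% for He. WT replicate 2 was the lowest WT library for 5 of the 10 genes (PPO1, PPO2, atilla, Hml and He), beside 35.8% of all genes tested. In Nxt1, replicate 3 was the lowest library for 9 of the 10 genes and replicate 1 the highest for 8. Over all genes tested, replicate 3 was lowest for 32.6% and replicate 1 highest for 32.7%. With equal totals the counts were 8 and 8. Nxt1 replicate 1 was also the shallowest library, and the part of depth in this order was not tested.

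Pre-mRNA reads were too few for most of the genes. Only srp and atilla had more than 8 such reads in any library. The srp pre-mRNA drew 158, 193 and 114 reads from the WT libraries and 67, 104 and 93 from the Nxt1 libraries, out of totals of 1237485 to 1456379 and 664729 to 1307846 pre-mRNA reads. In FPKM the groups overlapped, with a log2 difference of -0.27 and a standard error of 0.20 (limma adjusted p = 0.561). The atilla pre-mRNA drew 37, 23 and 53 reads from the WT libraries and 18, 51 and 37 from the Nxt1 libraries, also overlapping in FPKM (log2 difference 0.23, limma adjusted p = 0.809). Hml drew 1, 2 and 8 in the WT libraries and 1, 2 and 0 in the Nxt1 libraries.

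PPO1 had 1 pre-mRNA read, in Nxt1 replicate 1, and PPO2 and PPO3 had 0 in all 6 libraries, so the rise of PPO1 and PPO2 could not be followed in pre-mRNA. Whether depth or the intron sequence that was counted set these low reads was not tested. Neither srp nor atilla was called in pre-mRNA, beside 1.48% of 3576 genes tested. PPO1, Hml and eater also passed the filter of 1 FPKM, but on 8 reads or fewer in every library, so their reads say little about a difference in either direction. The ratio of mRNA to pre-mRNA within a library differed by a log2 value of 0.48 with a standard error of 0.20 for atilla (limma adjusted p = 0.314) and 0.25 with a standard error of 0.12 for srp (limma adjusted p = 0.366). Neither passed, beside 0.290% of 3103 genes tested. Some genes share ground with another gene in the reference annotation, and whether strand was used in counting was not given. PPO1 overlaps Elk, whose mRNA did not pass (log2 difference -0.49, limma adjusted p = 0.0925), and atilla overlaps bru1 (0.07, limma adjusted p = 0.765). NimC2 overlaps rk (-0.08, limma adjusted p = 0.848). The gene He overlaps NimB5, which was also higher (0.51, limma adjusted p = 0.0198), and srp overlaps lncRNA:CR44133, which was lower (-0.91, limma adjusted p = 0.0145). Among the circular RNAs listed, 597 for WT and 467 for Nxt1, 0 came from these 10 of the 17492 genes. The share of all genes that gave a listed circular RNA was not computed, so this 0 is not read as a trait of the 10.

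Other genes of the same cell classes were read from lists that include the members. Over all genes tested, 12.5% were higher and 9.1% lower. With equal totals 528 genes were higher and 4369 lower, with a median of -0.32. Among 8 crystal cell genes, all tested, 4 were higher in Nxt1 and 0 lower, with a median log2 difference of 0.54. Beside PPO1 and PPO2 these were CG17109, for which the WT libraries held 1, 2 and 2 reads and the Nxt1 libraries 94, 177 and 101 (limma adjusted p = 0.00189), and CG10469, with 3.998 ± 0.384 against 6.96 ± 1.56 FPKM (SD, n = 3 each, limma adjusted p = 0.0337). CG17109 reached the filter of 1 FPKM through the Nxt1 libraries alone and so could only count as higher. Without it 3 of 7 were higher and 0 lower, with a median of 0.43. CG10469 kept its call in 1 of 6 fits that left out a library. With equal totals 3 crystal cell genes were higher and 1 was lower. The lower one was fok, named here after its values were seen, at 49.1 ± 16.6 FPKM in WT and 32.95 ± 6.07 in Nxt1 (SD, n = 3 each), with a log2 difference of -0.51 (limma adjusted p = 0.248) and of -0.88 with equal totals (limma adjusted p = 0.0408). The crystal cell selector lz, a Runx factor, had means of 1.64 and 2.61 FPKM and did not pass (log2 difference 0.43, limma adjusted p = 0.379). Of 10 lamellocyte genes, 6 were tested, with 1 higher (mys, the beta integrin subunit, log2 difference 0.43, limma adjusted p = 0.0144, called in 2 of 6 fits without a library) and 1 lower (PPO3). The median of the 6 was -0.13, and with equal totals 0 were higher and 3 lower, with a median of -0.50. ItgaPS4, CG1208 and CG15347 did not reach the filter. Whether the reads of the 6 came from lamellocytes or from other cells of the carcass was not tested.

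Among 11 plasmatocyte genes tested, 3 were higher (Sr-CI, vkg and He) and 1 lower (NimC1), with a median of 0.33. He, which all hemocyte classes carry, is in this list too, and its call was lost in 4 of 6 fits without a library. Sr-CI, a scavenger receptor that binds bacteria, went from 51.8 ± 5.62 to 94.6 ± 15.5 FPKM (SD, n = 3 each), a log2 difference of 0.85 (limma adjusted p = 0.0120). vkg, a chain of collagen IV that hemocytes and fat body secrete, differed by 0.49 (limma adjusted p = 0.0412) and was called in 1 of 6 fits without a library. With equal totals, 1 plasmatocyte gene was higher and 4 were lower, with a median of -0.04 beside -0.32 over all genes.

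The Nimrod family, to which NimC1, NimC2 and eater belong, split. Of 12 members 9 were tested, 2 were higher and 3 lower, with a median of -0.27. With equal totals 2 were higher and 6 lower, with a median of -0.64 beside -0.32 over all genes. NimB2, a secreted member, fell with NimC1, from 17.3 ± 3.49 to 7.15 ± 1.26 FPKM (SD, n = 3 each), a log2 difference of -1.16 (limma adjusted p = 0.00895), and NimB1 by -0.90 (limma adjusted p = 0.0199). NimB4, a secreted protein that acts in clearing dead cells, rose by 0.71 (limma adjusted p = 0.0107). NimB5, a hormone-like protein that in larvae restrains hemocyte number and adhesion, rose by 0.51 (limma adjusted p = 0.0198). NimB2 and NimB4 were called in 6 of 6 fits without a library, NimB1 in 2 and NimB5 in 1. NimB5 had a WT mean under 1 FPKM and reached the filter through Nxt1 alone, and without it 1 of 8 was higher and 3 were lower.

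Among the scavenger receptors and thioester proteins, 9 of 11 were tested, 3 were higher and 0 lower, with a median of 0.24. With equal totals 3 were higher and 4 lower, with a median of -0.14 beside -0.32 over all genes. Beside Sr-CI they were Sr-CIV, at 0.574 ± 0.390 against 3.60 ± 0.595 FPKM (SD, n = 3 each) on 2 to 28 reads (log2 difference 1.57, limma adjusted p = 0.00601), and the opsonin Tep1, at 4.58 ± 1.51 against 10.6 ± 0.314 FPKM (log2 difference 1.08, limma adjusted p = 0.0143, called in 2 of 6 fits without a library). Sr-CIV reached the filter through the Nxt1 libraries alone, and without it 2 of 8 were higher and 0 lower, with a median of 0.14. Of 19 genes of hemocyte specification and signalling, 14 were tested, 0 were higher and 1 lower, with a median of 0.03. That gene was Ser (Serrate), a Notch ligand that acts in crystal cell formation, which differed by -0.54 (limma adjusted p = 0.00695). With equal totals 0 were higher and 7 lower, with a median of -0.32, beside -0.32 over all genes.

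The melanization list holds serine proteases that act around prophenoloxidase, the serpins that inhibit them, and other genes of the cascade. Of 14 tested genes, 2 were higher and 0 lower, with a median of 0.08. With equal totals 0 were higher and 3 lower, with a median of -0.29 beside -0.32 over all genes. The 2 were the serine proteases grass, which acts upstream of Toll, and Hayan, which cleaves prophenoloxidase. They differed by 0.54 (limma adjusted p = 0.0346) and 0.41 (limma adjusted p = 0.0366), and each was called in 1 of 6 fits without a library. Among 9 clotting and hemolymph proteins 4 were higher and 0 lower, with a median of 0.39, and with equal totals 3 were higher and 1 lower. The clot protein fon (fondue) went from 10.9 ± 1.46 to 29.1 ± 7.06 FPKM (SD, n = 3 each), a log2 difference of 1.32 (limma adjusted p = 0.00775). Tig (tiggrin, an extracellular matrix ligand) differed by 0.73 (limma adjusted p = 0.00548) and the lipoprotein gene apolpp, a fat body product, by 1.35 (limma adjusted p = 0.00461). Idgf3, a chitinase-like secreted protein, differed by 0.52 (limma adjusted p = 0.0323) and was called in 2 of 6 fits without a library. Of the genes named from these lists, CG10469, mys, vkg, He, grass, Hayan and Idgf3 were not called with equal totals, with log2 differences of 0.03 to 0.34.

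**Figure D5:**
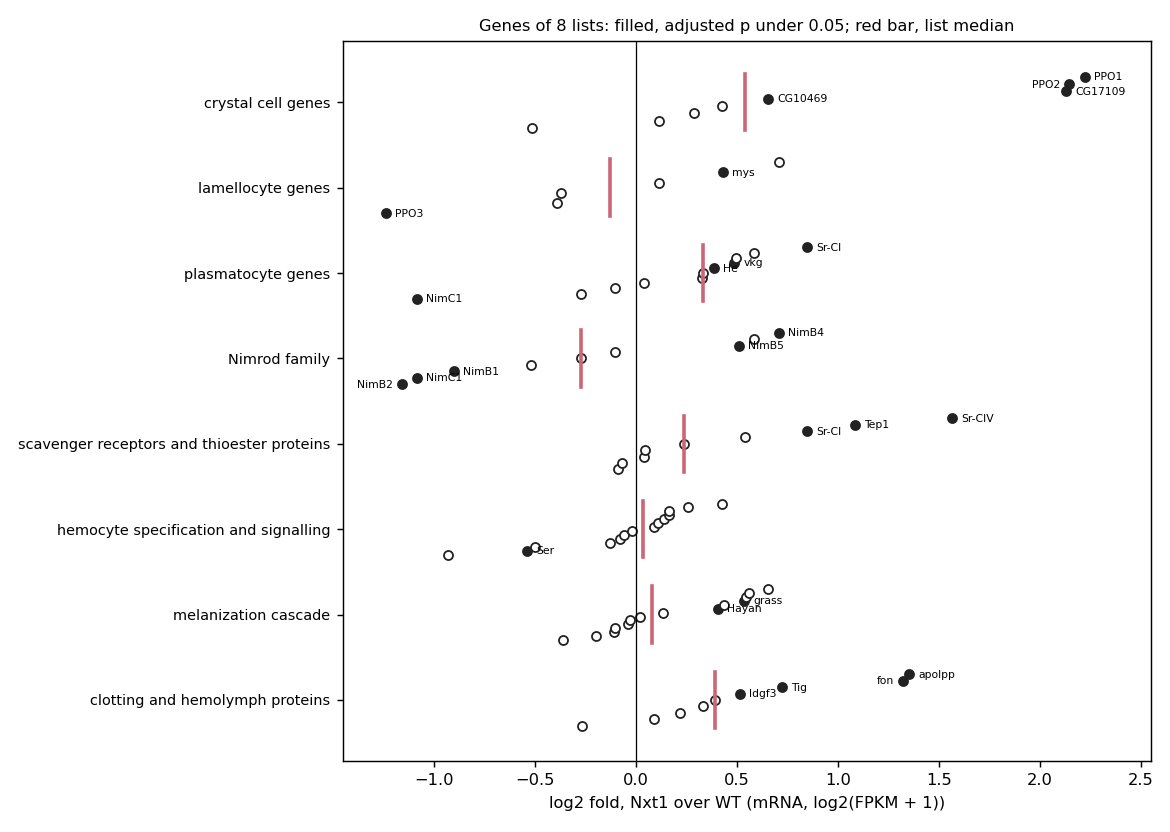
Points show the log2 difference of mRNA between Nxt1 and WT for each tested gene of 8 lists of hemocyte classes and functions, with filled points for genes past the limma threshold and a red bar at each list's median. The crystal cell list reaches from fok at -0.51 to PPO1 at 2.22, with its median at 0.54, while the specification list is centred on 0.03.

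Markers of other tissues that a carcass can hold also differed between the genotypes. Over all genes tested, 12.5% were higher and 9.1% lower, and with equal totals 528 genes were higher and 4369 lower. Of 10 muscle markers 4 were higher and 0 lower, with 1 higher by edgeR or with equal totals, and their summed level per own length was 10830 to 24240 FPKM in WT and 27050 to 35800 in Nxt1. Of 8 tested fat body markers 4 were higher and 1 lower, with sums of 1433 to 1729 and 2534 to 3774 FPKM, and of 8 tested epidermis markers 3 were higher and 0 lower, with sums of 35330 to 53650 and 84200 to 113300 FPKM. All 5 tested salivary gland markers were higher (2 of 5 by edgeR), with sums of 27.7 to 241 FPKM in WT and 388 to 1107 in Nxt1. Of 5 tested midgut markers 1 was higher and 0 lower, or 2 higher by edgeR (4.02 to 118 against 29.1 to 320.1 FPKM). Of these, betaTry and alphaTry reached the filter through Nxt1 alone, and without them 1 of 3 was higher by limma. Of 4 tested neuron markers 0 were higher and 1 lower, or 4 lower with equal totals (6.18 to 6.73 against 4.50 to 5.56 FPKM). The lower one, nSyb, and brp were under 1 FPKM in Nxt1, and without them 0 of 2 were called by limma. The lymph gland, the larval blood-forming organ, had 0 of 6 tested markers higher and 2 lower (Antp and Ser), or 5 lower with equal totals. The sums of its list went the other way, at 217 to 281 FPKM in WT and 287 to 310.4 in Nxt1. No marker in these lists had 0 reads in all 6 libraries, and which tissue the reads of a marker came from was not tested. The part of tissue makeup in the values of PPO1, PPO2, PPO3, NimC1 and He was not tested.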

How the data were processed

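Per the labels, total RNA of dissected carcasses was incubated with RNase R or water and made into stranded, ribosomal RNA depleted libraries. Tools named in the submitters' processing notes are STAR 2.5.3a, featureCounts 1.6.2 from Subread, Trimmomatic 0.36 and DESeq2. No build is named, and it is thus not given in the sources used here. The authors deposited FPKM per gene and library for mRNA and pre-mRNA, and a list of circular RNAs for each genotype. Whole reads (counts) were recovered from the ratios of the deposited FPKM within a gene (tolerance 0.01) and came out whole for all 15293 mRNA and 4543 pre-mRNA genes that have finite values and reads. On simulated data, 97.0% of 14904 mRNA and 96.8% of 4389 pre-mRNA genes were recovered exactly. The gene lengths these reads imply correlate with a gene's own span at a Spearman rho of 0.028 in mRNA, and at 0.933 with the span of whichever gene holds that rank when identifiers are sorted. This leaves comparisons within a gene as they are, and changes levels between genes, the filter and the weight of the pseudocount. In pre-mRNA, 1757 genes were infinite and 2878 undefined and were left out.

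Computed here were limma 3.58.1 fits (R 4.3.3, empirical Bayes with a trend) of log2(FPKM + 1) for genes whose mean over the 6 libraries reached 1 FPKM, 2-sided, with Benjamini-Hochberg adjustment over all genes tested. A log2 difference is on the log2(FPKM + 1) scale and understates the change of low genes. Alternatives were a pseudocount of 0.1, no filter, lengths in order, equal library totals, edgeR 4.0.16 quasi-likelihood on recovered reads, a replicate block and each library left out. An edgeR fit of genes with a mean of at least 10 reads was added after the data had been seen. Nothing says that replicates came from separate animals or cultures, so p-values measure the spread between these libraries, which may be technical. Replicates differed by more than sampling noise. The members and lists were chosen with earlier results of these data known. All 10 members are described; from the lists, genes past the threshold are named, up to 4 with the largest absolute log2 difference in each direction per list, and the 3 nearest profiles are named for the member with the most reads of each of 3 cell classes. The gene lz was named after its values had been seen. The symbols betaTub60D, Nplp2 and Dat were not analysed here.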

Additional observations from a re-analysis of the deposited data

How the results depend on the processing

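The calls of PPO1, PPO2, PPO3 and NimC1 held under every alternative that tested them, and the number of hemocyte genes called stayed between 4 and 7 (main 5, 7 without WT replicate 3). Below the threshold, the log2 difference with equal totals was -0.036 for Hml and -0.39 for srp. That of srp ran from -0.18 to 0.071 without 1 library, above 0 without Nxt1 replicate 3 (0.045), WT replicate 1 (0.042) or WT replicate 2 (0.071). The count of mRNA genes called by limma, 1929 (1117 higher, 812 lower), was 4897 with equal totals (528 higher, 4369 lower), 2117 with edgeR (967 higher, 1150 lower) and 757 to 2691 without 1 library, moving by over 1.5 times without WT replicate 1 (774) or Nxt1 replicate 1 (897), 2 (757) or 3 (762). The pre-mRNA count of 53 was 227 with edgeR, 200 with edgeR on genes of at least 10 reads, 27 with lengths in order and 14 to 139 without 1 library, moving by over 1.5 times for each of the 6. The count of ratio calls, 9, was 2 with lengths in order, 105 with equal totals, 30 with no filter, 22 with a pseudocount of 0.1 and 3 to 24 without 1 library, moving so without any WT library or Nxt1 replicate 2. The cause of these shifts was not tested.

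The labels name no pairing of samples by replicate number. Deviations of same-numbered libraries correlated at -0.081, -0.123 and -0.286 in mRNA and at 0.00685, 0.0362 and 0.0038 in pre-mRNA. Only for replicate 2 in pre-mRNA was the same-numbered Nxt1 library the one most correlated with the WT library. With 3 libraries per genotype these values cannot exclude a pairing. With a replicate block the limma counts were 585 in mRNA, 0 in pre-mRNA (508 at an unadjusted p under 0.05) and 1 for the ratio, and 4 hemocyte genes were called. He was the one not called (limma adjusted p = 0.0824), and the log2 ratio of PPO2 to PPO1 was -0.03 (exact permutation p = 0.75). The level of PPO3 rests on 9 to 69 reads a library, and the pre-mRNA values of all members but srp and atilla on 8 reads or fewer.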
